A study of Homo sapiens with 3 samples.

Results

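The genes of oxidative phosphorylation were followed across 3 cultures of a human lung carcinoma line. Members were all row symbols of the count tables that begin as the genes for subunits of the respiratory chain and ATP synthase do (MT-ND, MT-CO, MT-ATP and MT-CYB, NDUFA, NDUFB, NDUFC, NDUFS and NDUFV, SDHA to SDHD, UQCR, COX4 to COX8 and ATP5), and 107 of the 18692 symbols listed for any culture matched. Of these, 13 are mitochondrially encoded, 78 are nuclear subunits and 16 are nuclear genes that carry such a name without being a subunit. The nuclear subunits comprised 37 of complex I, 4 of complex II, 8 of complex III, 14 of complex IV and 15 of complex V. The symbol pattern does not catch CYC1, a subunit of complex III, which was followed among the carriers.

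The cultures were ldR-H460 and mdR-H460, which the labels name the long-term and mid-term dR-H460 lines, and the parental H460, a line established from a large-cell carcinoma of the lung. The labels describe reprogrammed cancer cells grown on irradiated human fibroblasts in Pluriton medium. The later steps that gave the dR lines, and the meaning of their term names in days, are not given in the sources used here. Each sample description carries a short code that the labels do not explain, so no times were read from it. Each culture gave 1 library of single cells, so no difference below has a replicate check, and the ranges after a fold are 95% intervals for counting error only. The ldR-H460, mdR-H460 and H460 libraries held 4956, 5151 and 4531 cells with 60468481, 66624830 and 66192074 unique molecular identifiers (UMIs), the tags that mark captured mRNA molecules. The median cell had 12342.5 UMIs in ldR-H460, 11736 in mdR-H460 and 14685 in H460. No ldR-H460 cell had more than 3998 detected genes, against up to 4993 in mdR-H460 and 4987 in H460, and 0 ldR-H460, 504 mdR-H460 (9.78%) and 681 H460 cells (15.0%) had 4000 or more. The labels do not say whether cells above such a number were removed, and the deepest cells are thus not alike across the cultures. Levels are in CPM, which scales each gene's UMIs to a common library total, so a level is a share of the captured mRNA and not a number of molecules per cell, and levels of different genes were not ranked against each other. The 4 epithelial markers with a row together had 1738 CPM in ldR-H460, 2575 CPM in mdR-H460 and 3234 CPM in H460. Of the keratins, KRT19 had 40.3 CPM in ldR-H460, 194 CPM in mdR-H460 and 1696 CPM in H460, lower past 1.5-fold in all 3 pairs, KRT8 had 494 CPM in ldR-H460, 625 CPM in mdR-H460 and 459 CPM in H460 and KRT18 had 1203 CPM in ldR-H460, 1755 CPM in mdR-H460 and 1079 CPM in H460, while EPCAM had 8, 18 and 23 UMIs in the ldR-H460, mdR-H460 and H460 libraries. The 8 fibroblast markers with a row, among them COL1A2, DCN and LUM, together reached 6.17 CPM in ldR-H460, 4.82 CPM in mdR-H460 and 17.9 CPM in H460, and DCN had 0 UMIs in ldR-H460 and mdR-H460.

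In oxidative phosphorylation, complexes I and II pass electrons from NADH and succinate to ubiquinone, complex III passes them on to cytochrome c, and complex IV gives them to oxygen. Complexes I, III and IV pump protons across the inner mitochondrial membrane, and complex V, the ATP synthase, uses the gradient to make ATP. Complex II is built from nuclear genes alone, while the other complexes combine nuclear subunits with subunits that the mitochondrial genome encodes. The mitochondrial genes are transcribed as long polycistronic RNAs and cut apart mostly at the tRNAs between them, whereas each nuclear subunit has a promoter of its own.

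The mitochondrially encoded genes made up more of the mRNA in ldR-H460 than in the other cultures, and the nuclear subunits differed little. The 13 mitochondrial genes together had 68039 CPM in ldR-H460, 52103 CPM in mdR-H460 and 48046 CPM in H460. That is 1.42-fold (1.41 to 1.42) higher in ldR-H460 than in H460, 1.31-fold (1.304 to 1.31) higher in ldR-H460 than in mdR-H460 and 1.08-fold (1.08 to 1.09) higher in mdR-H460 than in H460. The 78 nuclear subunits together had 31340.5 CPM in ldR-H460, 29639.6 CPM in mdR-H460 and 28749.6 CPM in H460, which is 1.09-fold (1.09 to 1.09) higher in ldR-H460 and 1.03-fold (1.03 to 1.03) higher in mdR-H460, each against H460. For every UMI of a nuclear subunit there were 2.17 mitochondrially encoded UMIs in ldR-H460, 1.76 in mdR-H460 and 1.67 in H460. Both sums kept these directions under each alternative scaling and choice of cells that was tried.

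By complex, the ratio of mitochondrially to nuclear encoded UMIs stood furthest apart between ldR-H460 and H460 in complex V. It was 0.736 in ldR-H460, 0.515 in mdR-H460 and 0.452 in H460, a 1.63-fold difference between ldR-H460 and H460. MT-ATP6 alone gave 421405 of the 422141 mitochondrial UMIs of complex V in ldR-H460 and 256794 of 257525 in H460. The value for complex V thus follows 1 mitochondrial gene. In complex I the ratio was 2.25 in ldR-H460, 1.74 in mdR-H460 and 1.77 in H460. In complex IV it was 4.24, 3.49 and 3.24 in the same order of cultures. In complex III, whose single mitochondrial subunit is cytochrome b, the ratio was 1.08 in ldR-H460, 0.987 in mdR-H460 and 1.05 in H460. There the mitochondrial and the nuclear sums were about equally far above H460 in ldR-H460, by 1.254-fold (1.247 to 1.26) and 1.22-fold (1.21 to 1.22). The nuclear subunits of complex I had 8925 CPM in ldR-H460, 8903 CPM in mdR-H460 and 8899 CPM in H460, so their sum was the same in the 3 cultures within the counting intervals (ldR-H460 over H460 0.999 to 1.01 times), and the log2 ratio for ldR-H460 over H460 ran from -0.07 to 0.12 over the alternatives tried.

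**Figure D1:**
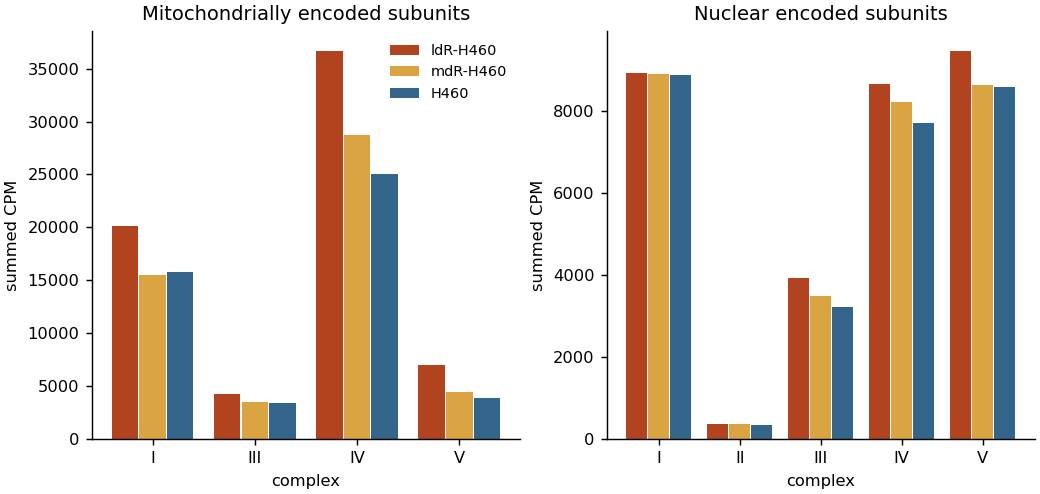
Summed CPM of the mitochondrially encoded and the nuclear subunits of complexes I to V, with bars for ldR-H460, mdR-H460 and H460 (1 library each). The mitochondrial bars of ldR-H460 are the tallest in complexes I, III, IV and V, while the nuclear complex I bars stand level at 8925, 8903 and 8899 CPM.

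Few single members passed 1.5-fold, the size used here in place of a test, counted for genes that reached 10 CPM in at least 1 library of the pair. Between ldR-H460 and H460, 8 of 100 measured members rose and 1 fell, where 8.57% of all 6556 measured genes rose and 18.9% fell. The members that rose were MT-ATP6, MT-ND4, MT-CO2, SDHD, UQCR10, NDUFS7, COX7A2L and UQCRHL, and the one that fell was NDUFA4L2. Between mdR-H460 and H460, 3 of 99 rose (SDHD, SDHB and NDUFAF4) and 0 fell, where 4.61% of 6402 genes rose and 17.2% fell. Between ldR-H460 and mdR-H460, 2 of 100 rose (MT-ATP6 and ATP5S) and 2 fell (NDUFA4L2 and NDUFAF1), where 8.92% of 6189 genes rose and 10.1% fell. The shares of members that rose were thus near those of all genes against H460 and lower between the dR lines, and the shares that fell were lower in all 3 pairs. With TMM scaling factors in place of library totals, 19 members rose in ldR-H460 over H460, where 12.3% of all genes did, 8 rose in mdR-H460 over H460, where 10.1% did, and 0 rose in ldR-H460 over mdR-H460, where 6.92% did.

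The median log2 ratio of the measured members was 0.16 for ldR-H460 over H460, against -0.12 over all genes, 0.09 for mdR-H460 over H460, against -0.10, and 0.07 for ldR-H460 over mdR-H460, against 0.00. Of the measured members 71.0% lay above 0 for ldR-H460 over H460, against 40.0% of all genes. For mdR-H460 over H460 it was 70.7%, against 40.9%, and for ldR-H460 over mdR-H460 58.0%, against 50.4%. The medians and these shares depend on scaling. TMM factors moved the median of all genes to 0.01, 0.10 and -0.07 in the same order of pairs. The split of calls over all genes moved with it. With library totals, calls that were higher made up 31.2% of calls for ldR-H460 over H460, 21.1% for mdR-H460 over H460 and 46.9% for ldR-H460 over mdR-H460, and with TMM factors 46.0%, 48.4% and 35.4%. Values next to the 1.5-fold limit leave the counts of members soft. For ldR-H460 over H460, NDUFS7, COX7A2L and UQCR10 stood at 1.54, 1.54 and 1.55-fold, while SDHB and MT-ND4L stood at 1.495 and 1.496-fold, just outside.

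**Figure D2:**
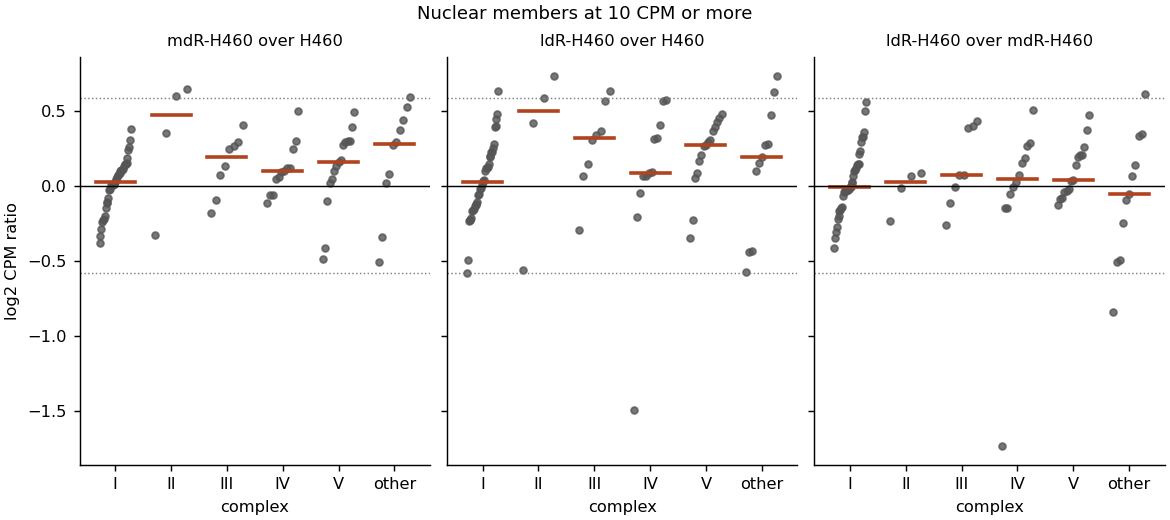
Log2 CPM ratio of each nuclear member at 10 CPM or more, by complex, in the 3 pairs of cultures, 1 point per gene, with a bar at each median and dotted lines at 1.5-fold. Most points lie between the lines, and NDUFA4L2 lies far below the others of complex IV in the pairs with ldR-H460.

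Among the mitochondrial genes, 11 of 13 were higher in ldR-H460 than in H460, where 40.0% of all measured genes were, and MT-ND5 and MT-ND6 were lower. All 13 were higher in ldR-H460 than in mdR-H460 under each scaling and choice of cells, where 50.4% of all genes were with library totals. Between mdR-H460 and H460, 8 were higher and 5 lower, and of those 5 MT-ATP8, MT-ND1 and MT-ND2 turned higher with TMM or DESeq2 factors.

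MT-ATP6, a subunit of the proton channel of ATP synthase, stood out most. It had 6969 CPM in ldR-H460, 4439 CPM in mdR-H460 and 3879.5 CPM in H460, and rose by 1.796-fold (1.79 to 1.81) in ldR-H460 over H460 and by 1.57-fold (1.56 to 1.58) in ldR-H460 over mdR-H460. Its share of all mitochondrially encoded UMIs was 10.2% in ldR-H460, 8.52% in mdR-H460 and 8.07% in H460. MT-ATP8, the other mitochondrial subunit of the enzyme, had 12.2 CPM in ldR-H460, 10.2 CPM in mdR-H460 and 11.0 CPM in H460, and its counting interval for ldR-H460 over H460 spanned no difference (0.994 to 1.22 times). The reading frames of the pair overlap on 1 bicistronic mRNA, as do those of MT-ND4L and MT-ND4, so each pair is measured on a shared molecule and counts of its members are not independent. The overlaps are shown to make this visible, read from GENCODE release 29 transcripts on GRCh38, with the start codon of the downstream frame in capitals.
MT-ATP8 and MT-ATP6, chrM:8527-8572, plus strand: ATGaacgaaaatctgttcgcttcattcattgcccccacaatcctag
MT-ND4L and MT-ND4, chrM:10760-10766, plus strand: ATGctaa
The first overlap is 46 bases long and the second 7.

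The catalytic subunits of cytochrome c oxidase, MT-CO1, MT-CO2 and MT-CO3, were all higher in ldR-H460 than in H460 and mdR-H460. MT-CO2, which carries the copper centre that takes electrons from cytochrome c, had 14387 CPM in ldR-H460, 11246 CPM in mdR-H460 and 8993 CPM in H460. It rose by 1.60-fold (1.59 to 1.61) in ldR-H460 over H460, and its log2 ratio for mdR-H460 over H460 was 0.32. MT-CO1, the subunit with the oxygen-reducing site, had 11091 CPM in ldR-H460, 8320.0 CPM in mdR-H460 and 7891 CPM in H460, and MT-CO3 had 11236 CPM in ldR-H460, 9200.2 CPM in mdR-H460 and 8114 CPM in H460. Both stayed under 1.5-fold, at 1.41-fold and 1.38-fold higher in ldR-H460 than in H460. MT-CYB, the cytochrome b of complex III, had 4229 CPM in ldR-H460, 3437 CPM in mdR-H460 and 3372 CPM in H460.

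The mitochondrial subunits of complex I, which form the core of its proton-pumping membrane arm, did not move together. MT-ND4 had 7749.8 CPM in ldR-H460, 5201 CPM in mdR-H460 and 4818 CPM in H460, and rose by 1.61-fold (1.60 to 1.62) in ldR-H460 over H460. MT-ND4L, on the same mRNA, had 129 CPM in ldR-H460, 107 CPM in mdR-H460 and 86.0 CPM in H460 and was 1.496-fold (1.45 to 1.55) higher in ldR-H460 than in H460, and MT-ND3 had 1141 CPM in ldR-H460, 845 CPM in mdR-H460 and 781 CPM in H460. MT-ND1 and MT-ND2, at the start of the coding region, were nearer to level, with 4884 CPM in ldR-H460, 4089.5 CPM in mdR-H460 and 4205 CPM in H460 for MT-ND1 and 4719 CPM in ldR-H460, 3851 CPM in mdR-H460 and 4201 CPM in H460 for MT-ND2. MT-ND5 went the other way, with 1419 CPM in ldR-H460, 1298 CPM in mdR-H460 and 1606 CPM in H460, 1.24-fold (1.23 to 1.249) lower in mdR-H460 and 1.13-fold (1.12 to 1.14) lower in ldR-H460, each against H460. MT-ND6 is the only one of the 13 on the light strand, and its mRNA is known to lack a long poly(A) tail, while the kit captures poly(A). It had 72.9 CPM in ldR-H460, 59.2 CPM in mdR-H460 and 87.5 CPM in H460, 1.48-fold (1.42 to 1.54) lower in mdR-H460 than in H460, and the ldR-H460 over H460 value of -0.26 on the log2 scale turned to 0.15 among cells called G1. As a share of mitochondrially encoded UMIs, MT-ND5 took 2.09% in ldR-H460, 2.49% in mdR-H460 and 3.34% in H460, and MT-ND6 took 0.107%, 0.114% and 0.182% in the same order. Copies of mitochondrial DNA in the nuclear genome could take part in these counts, which was not tested.

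**Figure D3:**
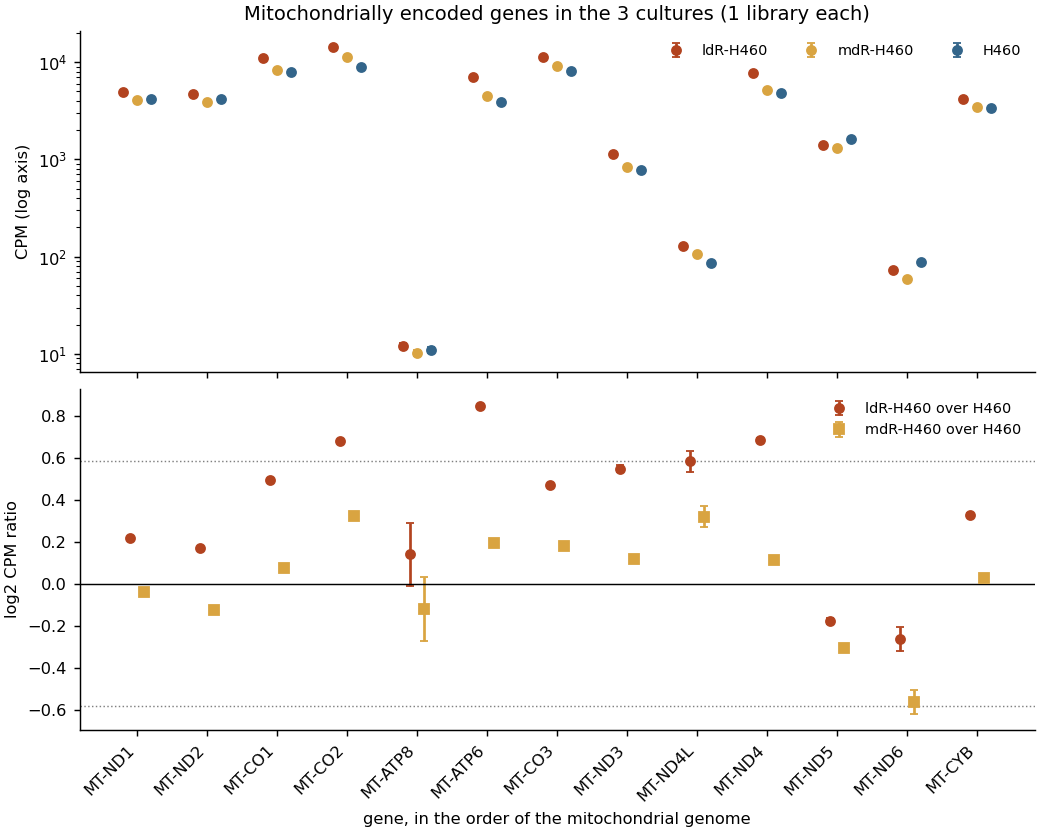
The 13 mitochondrially encoded genes in the order of the mitochondrial genome, with CPM per library on a log axis above. Below are the log2 ratios of ldR-H460 over H460 and mdR-H460 over H460, and the pair of dR lines is not drawn. MT-ATP6, MT-CO2 and MT-ND4 have the highest ldR-H460 over H460 ratios, and MT-ND5 and MT-ND6 lie below 0 against H460.

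The nuclear subunits of complex I lay on both sides of H460, although their sum was level. Of 37, all were measured, and 1 rose and 0 fell in ldR-H460 over H460, while no member passed 1.5-fold in the other pairs. NDUFS7, a core subunit that carries the iron-sulfur cluster next to ubiquinone, had 194 CPM in ldR-H460, 155 CPM in mdR-H460 and 126 CPM in H460, a rise of 1.54-fold (1.502 to 1.59) in ldR-H460 over H460. NDUFS8, another iron-sulfur core subunit, had 281 CPM in ldR-H460, 219.8 CPM in mdR-H460 and 214 CPM in H460. The 7 core subunits together were 1.13-fold (1.12 to 1.14) higher in ldR-H460 than in H460, and the 30 accessory subunits were 1.01-fold (1.01 to 1.02) lower, a direction that TMM factors, DESeq2 factors and totals without mitochondrial and ribosomal protein UMIs turned to higher and cells under a mitochondrial share of 8% brought to level.

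Among accessory subunits of complex I, NDUFB10 in the membrane arm had 503 CPM in ldR-H460, 562 CPM in mdR-H460 and 709 CPM in H460, 1.41-fold (1.39 to 1.43) lower in ldR-H460 than in H460. NDUFB1, also of the membrane arm, had 320.2 CPM in ldR-H460, 218 CPM in mdR-H460 and 236 CPM in H460, 1.47-fold (1.44 to 1.502) higher in ldR-H460 than in mdR-H460. NDUFA10 had 109 CPM in ldR-H460, 101 CPM in mdR-H460 and 78.0 CPM in H460, and NDUFA7, which was little counted, had 20.6 CPM in ldR-H460, 14.5 CPM in mdR-H460 and 19.0 CPM in H460. NDUFA9, near the junction of the arms, had 53.0 CPM in ldR-H460, 70.6 CPM in mdR-H460 and 62.2 CPM in H460, 1.33-fold (1.27 to 1.39) lower in ldR-H460 than in mdR-H460. For NDUFB10 both dR lines were below H460, while for NDUFA10 and NDUFS7 both were above it, with ratio intervals that exclude 1.

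For complex II, succinate dehydrogenase, the mRNA of single subunits differed between the libraries more than the summed mRNA did. The 4 genes together had 349 CPM in ldR-H460, 366 CPM in mdR-H460 and 325 CPM in H460. SDHD, a membrane anchor that holds haem, had 60.6 CPM in ldR-H460, 57.1 CPM in mdR-H460 and 36.6 CPM in H460, and rose by 1.66-fold (1.57 to 1.74) in ldR-H460 and 1.56-fold (1.48 to 1.64) in mdR-H460, each against H460. SDHB, the iron-sulfur subunit, had 135 CPM in ldR-H460, 136 CPM in mdR-H460 and 90.2 CPM in H460. It rose by 1.51-fold (1.46 to 1.56) in mdR-H460 over H460 and stood at 1.495-fold (1.45 to 1.55) in ldR-H460. SDHA, the flavoprotein that oxidises succinate, had 40.7 CPM in ldR-H460, 38.9 CPM in mdR-H460 and 30.5 CPM in H460, 1.33-fold (1.26 to 1.41) and 1.27-fold (1.20 to 1.35) higher in ldR-H460 and mdR-H460 than in H460. SDHC, the other membrane anchor, went the opposite way, with 113 CPM in ldR-H460, 133 CPM in mdR-H460 and 167 CPM in H460, 1.48-fold (1.43 to 1.52) lower in ldR-H460 than in H460.

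As a share of complex II UMIs, SDHC took 32.4% (31.8% to 33.1%, Clopper-Pearson) in ldR-H460, 36.5% (35.9% to 37.1%) in mdR-H460 and 51.5% (50.9% to 52.2%) in H460. SDHB took 38.6%, 37.3% and 27.8%, SDHD 17.3%, 15.6% and 11.3%, and SDHA 11.6%, 10.6% and 9.41% in the same order. Phase calls bore on these values. Among cells called G1 the summed complex II log2 ratio was -0.15 for ldR-H460 over H460 and -0.02 for mdR-H460 over H460, against 0.11 and 0.17 over all cells, and SDHD stood at 0.06 for mdR-H460 over H460, against 0.64. The part of cell cycle phase in the difference was not tested further.

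Promoters of the 3 complex II genes that were higher in both dR lines are shown because SDHD, and SDHB in mdR-H460 alone, passed 1.5-fold against H460 while SDHA was within it. They run from 250 bases before to 50 bases after 1 RefSeq start on GRCh38.p14, written along the gene. Capitals mark matches, on either strand, to the NRF1 motif (GCGCA, any base, GCGC), the ETS motif CCGGAAG and the hypoxia response cores ACGTG and GCGTG. NRF1 and the ETS factor GABP are known activators of respiratory chain genes.
SDHA: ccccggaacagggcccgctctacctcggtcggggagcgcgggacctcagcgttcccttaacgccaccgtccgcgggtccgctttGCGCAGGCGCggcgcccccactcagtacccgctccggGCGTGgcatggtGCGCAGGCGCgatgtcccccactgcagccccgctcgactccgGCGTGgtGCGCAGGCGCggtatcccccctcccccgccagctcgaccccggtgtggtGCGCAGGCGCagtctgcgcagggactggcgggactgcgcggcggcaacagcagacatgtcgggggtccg
SDHB: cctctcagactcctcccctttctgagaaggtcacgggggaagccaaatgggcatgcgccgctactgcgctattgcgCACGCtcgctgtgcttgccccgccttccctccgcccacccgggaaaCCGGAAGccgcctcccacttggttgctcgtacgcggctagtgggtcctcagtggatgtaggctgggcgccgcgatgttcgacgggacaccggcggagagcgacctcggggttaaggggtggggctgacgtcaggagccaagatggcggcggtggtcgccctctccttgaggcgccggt
SDHD: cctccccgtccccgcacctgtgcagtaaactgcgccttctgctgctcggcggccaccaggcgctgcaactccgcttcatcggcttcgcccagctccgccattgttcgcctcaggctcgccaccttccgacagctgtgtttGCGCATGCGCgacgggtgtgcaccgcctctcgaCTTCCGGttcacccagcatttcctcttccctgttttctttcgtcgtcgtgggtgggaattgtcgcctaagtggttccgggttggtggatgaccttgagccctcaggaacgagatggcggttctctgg
They lie at chr5:218070-218369 (plus strand), chr1:17053983-17054282 (minus) and chr11:112086623-112086922 (plus). SDHA held 4 NRF1 matches, 166, 117, 68 and 19 bases before the start, and 2 GCGTG cores. SDHB held an ETS match 128 bases before the start and a GCGTG core on the other strand 174 bases before it. SDHD held an NRF1 match 110 bases and an ETS match 77 bases before the start, and no printed match overlapped another. No promoter was matched for SDHC, the gene that went the opposite way, so the matches cannot be set against it.

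**Figure D4:**
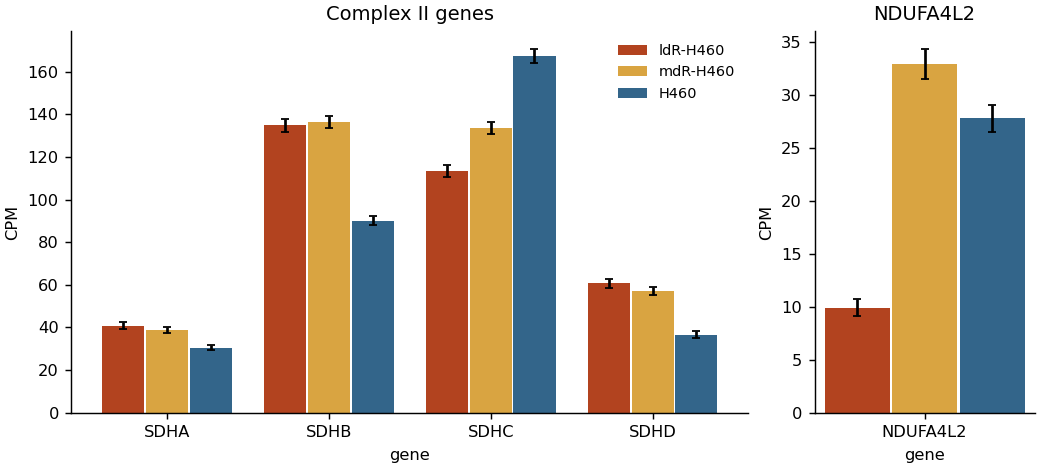
CPM of the 4 succinate dehydrogenase genes and of NDUFA4L2 in ldR-H460, mdR-H460 and H460, with bars from 0 and 95% counting intervals. SDHA, SDHB and SDHD are higher and SDHC is lower in both dR lines than in H460, and NDUFA4L2 is low in ldR-H460 alone.

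In complex III, 7 of 8 nuclear subunits were above H460 in ldR-H460, 1 of them past 1.5-fold, where 40.0% of all measured genes were above H460. UQCR10, a small subunit of the membrane part, had 475 CPM in ldR-H460, 364 CPM in mdR-H460 and 307 CPM in H460, a rise of 1.55-fold (1.52 to 1.58). UQCRH, the hinge protein at the cytochrome c1 side, had 1283 CPM in ldR-H460, 950.2 CPM in mdR-H460 and 868 CPM in H460 and was 1.48-fold (1.46 to 1.49) higher in ldR-H460 than in H460. UQCRHL, a near-identical retrocopy of UQCRH, had 12.02 CPM in ldR-H460, 9.46 CPM in mdR-H460 and 7.24 CPM in H460 and made up 0.929%, 0.985% and 0.826% of their joint UMIs in ldR-H460, mdR-H460 and H460, so its rise of 1.66-fold in ldR-H460 over H460 may hold reads of UQCRH and is uncertain. UQCRFS1, the Rieske iron-sulfur protein, had 277 CPM in ldR-H460, 265 CPM in mdR-H460 and 219.9 CPM in H460, and UQCR11 had 343 CPM in ldR-H460, 326 CPM in mdR-H460 and 267 CPM in H460. The core subunits parted, as UQCRC1 had 117 CPM in ldR-H460, 140.5 CPM in mdR-H460 and 106 CPM in H460, highest in mdR-H460, and UQCRC2 had 107 CPM in ldR-H460, 81.2 CPM in mdR-H460 and 86.7 CPM in H460, highest in ldR-H460. UQCRB, a ubiquinone-binding subunit, was the exception below H460, with 387 CPM in ldR-H460, 419 CPM in mdR-H460 and 476 CPM in H460.

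The UQCR10 promoter is shown because it was the nuclear complex III subunit that rose.
UQCR10: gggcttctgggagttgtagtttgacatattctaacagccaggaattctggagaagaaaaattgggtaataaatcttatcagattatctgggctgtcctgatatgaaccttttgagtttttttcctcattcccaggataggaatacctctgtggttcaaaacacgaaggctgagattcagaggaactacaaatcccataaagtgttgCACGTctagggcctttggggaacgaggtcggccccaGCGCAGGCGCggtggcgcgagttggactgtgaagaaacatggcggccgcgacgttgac
It lies at chr22:29767119-29767418 on the plus strand of GRCh38.p14, with the same motifs in capitals, an NRF1 match 8 bases and an ACGTG core on the other strand 44 bases before the RefSeq start.

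The nuclear subunits of complex IV together had 8662 CPM in ldR-H460, 8239.8 CPM in mdR-H460 and 7705 CPM in H460. Of 12 measured, 9 were above H460 in ldR-H460 with 0 past 1.5-fold, against 40.0% of all measured genes above H460. NDUFA4, COX7A2 and NDUFA4L2 were below H460. COX5A, which with COX5B packs around the catalytic core, had 1041 CPM in ldR-H460, 992 CPM in mdR-H460 and 703 CPM in H460, 1.48-fold (1.46 to 1.499) and 1.41-fold (1.40 to 1.43) higher in ldR-H460 and mdR-H460 than in H460. COX8A had 464 CPM in ldR-H460, 327 CPM in mdR-H460 and 314 CPM in H460, 1.48-fold (1.45 to 1.51) higher in ldR-H460 than in H460 and 1.42-fold (1.39 to 1.44) higher in ldR-H460 than in mdR-H460. COX7B had 739 CPM in ldR-H460, 606 CPM in mdR-H460 and 559.9 CPM in H460, and COX6A1 had 699.9 CPM in ldR-H460, 689 CPM in mdR-H460 and 561 CPM in H460. Of the genes with tissue-restricted counterparts, COX4I1, a subunit that regulates the enzyme, had 903 CPM in ldR-H460, 936 CPM in mdR-H460 and 864 CPM in H460, COX6B1 692 CPM in ldR-H460, 623 CPM in mdR-H460 and 651 CPM in H460 and COX7A2 567 CPM in ldR-H460, 627 CPM in mdR-H460 and 654 CPM in H460. The testis isoforms COX6B2 and COX8C had at most 0.331 CPM in any culture, and COX4I2, COX6A2, COX7A1 and COX7B2 had no row in the tables used here.

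NDUFA4L2 had the largest difference of any measured member in the pairs with ldR-H460. It is the isoform of NDUFA4 known to be induced by hypoxia through HIF-1, and NDUFA4, once counted with complex I, is now known as a subunit of complex IV. NDUFA4L2 had 9.87 CPM in ldR-H460, 32.9 CPM in mdR-H460 and 27.8 CPM in H460, and it fell by 2.81-fold (2.56 to 3.09) in ldR-H460 against H460 and 3.33-fold (3.04 to 3.65) in ldR-H460 against mdR-H460. It was 1.18-fold (1.11 to 1.26) higher in mdR-H460 than in H460. NDUFA4 itself had 1186 CPM in ldR-H460, 1313 CPM in mdR-H460 and 1227 CPM in H460, within 1.11-fold in every pair. HIF1A, which encodes the oxygen-regulated subunit of HIF-1 and is controlled mostly at the protein level, had 25.9 CPM in ldR-H460, 37.7 CPM in mdR-H460 and 49.5 CPM in H460.

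At 5000 UMIs per cell, 2.52% (2.08% to 3.02%, Clopper-Pearson) of ldR-H460 cells, 11.4% (10.46% to 12.5%) of mdR-H460 cells and 10.1% (9.12% to 11.0%) of H460 cells had an NDUFA4L2 UMI. Without thinning the shares were 4.56%, 18.2% and 21.0%. No cell type that should lack the gene was present to measure the background of free RNA. Cells with a UMI held 2.64 UMIs each on average in ldR-H460, 2.33 in mdR-H460 and 1.93 in H460, and up to 29, 24 and 14, so the share of cells with a UMI was lower in ldR-H460 while the UMIs per such cell were not. Among cells called G1, 713, 1300 and 1357 in ldR-H460, mdR-H460 and H460, the log2 ratio was -0.20 for ldR-H460 over H460 and -0.93 for ldR-H460 over mdR-H460, against -1.49 and -1.74 over all cells. The drop was much smaller among such cells, where the median ratio of all genes was -0.22 for ldR-H460 over H460, and the part of phase in it was not tested further. In ldR-H460 the median mitochondrial share was 5.89% in thinned cells with an NDUFA4L2 UMI and 6.90% in those without, while in mdR-H460 it was 5.22% with and 5.26% without, and in H460 4.78% with and 4.72% without.

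The NDUFA4L2 promoter is shown for its hypoxia response cores, given what the gene is known for.
NDUFA4L2: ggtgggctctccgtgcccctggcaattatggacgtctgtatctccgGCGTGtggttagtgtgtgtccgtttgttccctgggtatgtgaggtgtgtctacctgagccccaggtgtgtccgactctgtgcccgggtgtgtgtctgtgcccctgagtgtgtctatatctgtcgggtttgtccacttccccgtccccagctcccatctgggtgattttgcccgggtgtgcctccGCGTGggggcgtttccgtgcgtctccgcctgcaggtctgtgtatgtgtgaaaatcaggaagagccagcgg
It lies at chr12:57240713-57241012 on the minus strand of GRCh38.p14, where RefSeq names the gene COXFA4L2. It held GCGTG 204 and 20 bases before the start, and no ACGTG, NRF1 or ETS match. GCGTG is common, as it occurred in 36.3% of all promoters and in 47.0% of the matched promoters of nuclear subunits. The NDUFA4 promoter held no match to any of these motifs. Any part of the cores in the difference between the cultures was not tested.

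Complex V had 13 of 15 nuclear subunits above H460 in ldR-H460, 0 of them past 1.5-fold, against 40.0% of all measured genes above H460. ATP5B, the beta subunit of the catalytic head that makes ATP, had 651 CPM in ldR-H460, 635 CPM in mdR-H460 and 485 CPM in H460. ATP5D, the delta subunit of the rotor stalk, had 634 CPM in ldR-H460, 550.5 CPM in mdR-H460 and 455 CPM in H460. ATP5F1, of the stator stalk, had 188 CPM in ldR-H460, 193 CPM in mdR-H460 and 138 CPM in H460, 1.40-fold (1.36 to 1.44) higher in mdR-H460 than in H460. ATP5E, the epsilon subunit, and ATP5H, of the stator stalk, were the 2 below H460. ATP5E had 1519.8 CPM in ldR-H460, 1382 CPM in mdR-H460 and 1936 CPM in H460, 1.40-fold (1.39 to 1.41) lower in mdR-H460 and 1.27-fold (1.26 to 1.28) lower in ldR-H460. ATP5EP2, a retrocopy with 0.441%, 0.439% and 0.464% of the joint UMIs, could share its reads. ATP5I, a small membrane subunit, had 443 CPM in ldR-H460, 343 CPM in mdR-H460 and 338 CPM in H460, 1.29-fold (1.27 to 1.31) higher in ldR-H460 than in mdR-H460.

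Subunit c, the ring that turns with the proton flow, comes from 3 genes with the same mature protein. ATP5G1 had 908 CPM in ldR-H460, 759 CPM in mdR-H460 and 736 CPM in H460, ATP5G2 828 CPM in ldR-H460, 598 CPM in mdR-H460 and 799 CPM in H460 and ATP5G3 1398 CPM in ldR-H460, 1213 CPM in mdR-H460 and 1087 CPM in H460. ATP5G2 was 1.34-fold (1.32 to 1.35) lower in mdR-H460 than in H460 and 1.38-fold (1.37 to 1.40) higher in ldR-H460 than in mdR-H460, so that its share of subunit c UMIs was 26.4% in ldR-H460, 23.3% in mdR-H460 and 30.5% in H460. ATP5G3 took 44.6%, 47.2% and 41.5%, and ATP5G1 28.97%, 29.5% and 28.1% in the same order.

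The members that are not subunits held the remaining calls. NDUFAF4, an assembly factor of complex I, had 75.9 CPM in ldR-H460, 107 CPM in mdR-H460 and 70.8 CPM in H460 and rose by 1.51-fold (1.45 to 1.56) in mdR-H460 over H460. NDUFAF1, which works on the membrane arm, had 16.6 CPM in ldR-H460, 29.7 CPM in mdR-H460 and 24.7 CPM in H460 and fell by 1.79-fold (1.66 to 1.94) in ldR-H460 against mdR-H460. NDUFAF2 had 186 CPM in ldR-H460, 193 CPM in mdR-H460 and 134 CPM in H460, above H460 in both dR lines, and NDUFAF3 had 170.4 CPM in ldR-H460, 163 CPM in mdR-H460 and 231 CPM in H460, below H460 in both. NDUFAF6 had 25.5 CPM in ldR-H460, 36.4 CPM in mdR-H460 and 34.4 CPM in H460, NDUFAF5 33.5 CPM in ldR-H460, 35.7 CPM in mdR-H460 and 27.7 CPM in H460 and NDUFAF7 12.4 CPM in ldR-H460, 14.7 CPM in mdR-H460 and 10.8 CPM in H460. NDUFAF4 moved with phase calls, since among cells called G1 its log2 ratio was 0.16 for mdR-H460 over H460, against 0.59 over all cells.

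COX7A2L, which joins complexes III and IV into supercomplexes, had 278 CPM in ldR-H460, 221 CPM in mdR-H460 and 180.3 CPM in H460 and rose by 1.54-fold (1.51 to 1.58) in ldR-H460 over H460. ATP5S, a factor named for ATP synthase, had 30.4 CPM in ldR-H460, 19.9 CPM in mdR-H460 and 25.2 CPM in H460 and rose by 1.53-fold (1.42 to 1.64) in ldR-H460 over mdR-H460, and ATP5SL had 30.3 CPM in ldR-H460, 27.5 CPM in mdR-H460 and 27.3 CPM in H460. The antisense transcripts NDUFB2-AS1 and NDUFV2-AS1, the read-through ATP5J2-PTCD1 and the copies ATP5EP2 and ATP5L2 stayed under 10 CPM in every culture. With COX6B2 and COX8C they made up the 7 members that were not counted in any pair.

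The matched promoters of nuclear subunits, 66 of 78, were set beside all 27305 promoters of 300 bases in the RefSeq table. NRF1 matches occurred in 16 of them (24.2%), against 6.28% of all promoters, and ETS matches in 19 (28.8%), against 10.7%. The ACGTG core occurred in 17 (25.8%), against 21.6%, and GCGTG in 31 (47.0%), against 36.3%. A match is a run of letters in this window and was not tied to binding or to any difference between the cultures.

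The shares of single cells followed the library sums. The mitochondrially encoded share of a cell's UMIs had a median of 6.85% in ldR-H460 (quartiles 5.84% and 7.81%), 5.08% in mdR-H460 (4.09% and 6.08%) and 4.64% in H460 (3.75% and 5.58%). The nuclear subunit share had medians of 3.11%, 2.97% and 2.88% in the same order. Thinned to 5000 UMIs, cells had mitochondrial medians of 6.88% in ldR-H460, 5.26% in mdR-H460 and 4.74% in H460. The order held in each class of depth, from 6.83%, 4.79% and 4.61% among cells of 1000 to under 5000 UMIs to 6.17%, 4.89% and 4.61% among cells of 20000 or more, a class that holds 340 cells of ldR-H460, 1223 of mdR-H460 and 1211 of H460. Among cells called G1, S and G2/M the ldR-H460 medians were 6.95%, 6.84% and 6.96%, the mdR-H460 medians 5.33%, 5.06% and 5.34%, and the H460 medians 4.61%, 4.57% and 5.16%. Across thinned cells the mitochondrial and the nuclear share were hardly related, with Spearman's rho of -0.07 over 4521 cells of ldR-H460, 0.11 over 3880 of mdR-H460 and 0.12 over 3850 of H460, where both shares are parts of the same 5000 UMIs.

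The deposited cells end at a mitochondrial share of 10%, and ldR-H460 lay nearest to that limit. At 9% or more there were 314 cells (6.34%) in ldR-H460, 70 (1.36%) in mdR-H460 and 26 (0.574%) in H460. Cells above the limit were not analysed here, so the upper tail of each culture was not measured. Keeping cells under 8%, which left out 20.3% of ldR-H460, 4.43% of mdR-H460 and 2.36% of H460 cells, gave a summed mitochondrial log2 ratio of 0.42 for ldR-H460 over H460, against 0.50. At the low end, 145 cells (2.93%) in ldR-H460, 580 (11.3%) in mdR-H460 and 313 (6.91%) in H460 had under 2% mitochondrial UMIs. They were shallow, with medians of 463, 775.5 and 619 UMIs, and their nuclear subunit share had medians of 3.26%, 2.84% and 2.77%, near those of all cells.

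**Figure D5:**
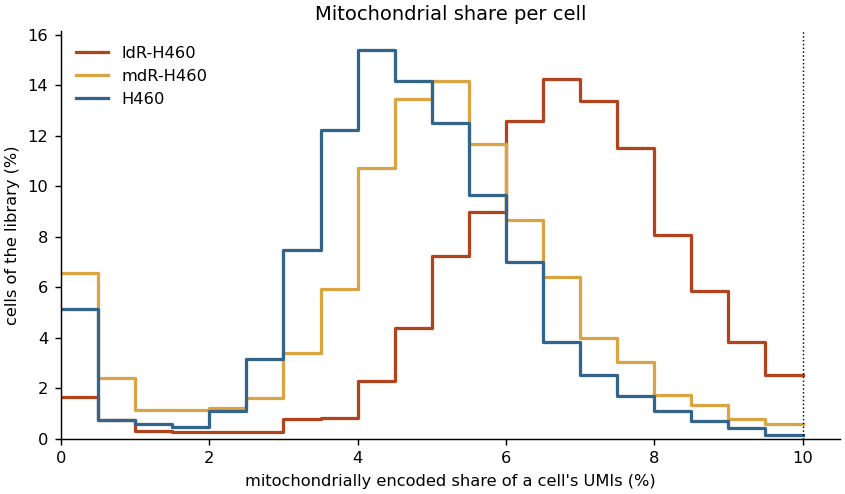
Percent of cells per bin of the mitochondrially encoded share of a cell's UMIs in ldR-H460, mdR-H460 and H460, with a line at 10%, where the deposited cells end. The ldR-H460 peak lies to the right of the others, and each culture has a small group of cells near 0.

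Genes that serve the complexes were read from lists chosen with earlier results of these data known. Their counts stand beside the shares of all measured genes, of which 8.57% rose and 18.9% fell in ldR-H460 over H460, 4.61% rose and 17.2% fell in mdR-H460 over H460, and 8.92% rose and 10.1% fell in ldR-H460 over mdR-H460. Of 39 measured assembly genes other than the NDUFAF members, 4 rose and 2 fell in ldR-H460 over H460, 3 rose and 0 fell in mdR-H460 over H460, and of 38 measured in ldR-H460 over mdR-H460 1 rose and 1 fell. The shares that rose, 10.3% in ldR-H460 over H460 and 7.7% in mdR-H460 over H460, were not far from those of all genes, and the share that fell in ldR-H460 over H460, 5.1%, was below it. COA5, a complex IV assembly factor, had 95.7 CPM in ldR-H460, 57.3 CPM in mdR-H460 and 43.6 CPM in H460, and SDHAF3, which helps SDHB gain its iron-sulfur clusters, had 114 CPM in ldR-H460, 89.1 CPM in mdR-H460 and 56.7 CPM in H460. ECSIT, a complex I assembly factor, had 44.3 CPM in ldR-H460, 39.9 CPM in mdR-H460 and 24.2 CPM in H460, and it rose in both dR lines against H460, as SDHAF3 did. COA1 also rose in ldR-H460 over H460 and UQCC1, for complex III, in mdR-H460 over H460. On the lower side, the complex IV assembly factors COA3, with 75.8 CPM in ldR-H460, 96.2 CPM in mdR-H460 and 137 CPM in H460, and SURF1, with 58.6 CPM in ldR-H460, 61.4 CPM in mdR-H460 and 91.6 CPM in H460, fell in ldR-H460 against H460. TMEM70, for complex V, had 39.1 CPM in ldR-H460, 66.1 CPM in mdR-H460 and 54.8 CPM in H460, and fell in ldR-H460 against mdR-H460.

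Of 18 measured genes of mitochondrial transcription and RNA handling, 0 rose and 4 fell in ldR-H460 over H460, and 0 rose and 0 fell in mdR-H460 over H460. Of 19 measured in ldR-H460 over mdR-H460, 0 rose and 4 fell. The share that fell in ldR-H460 over H460, 22.2%, was near that of all genes, and in ldR-H460 over mdR-H460 it was 21.1%, against 10.1% of all genes. TRMT10C, a subunit of the RNase P that cuts the polycistronic RNA at tRNAs, had 41.5 CPM in ldR-H460, 71.6 CPM in mdR-H460 and 82.0 CPM in H460 and fell by 1.97-fold (1.88 to 2.07) in ldR-H460 against H460 and by 1.72-fold (1.64 to 1.81) against mdR-H460. FASTK, of which a mitochondrial form is needed for MT-ND6 mRNA, had 32.1 CPM in ldR-H460, 41.8 CPM in mdR-H460 and 56.0 CPM in H460, and it fell by 1.75-fold (1.65 to 1.85) in ldR-H460 against H460. FASTKD2, an RNA-binding relative of FASTK, had 9.10 CPM in ldR-H460, 18.1 CPM in mdR-H460 and 15.2 CPM in H460, below 10 CPM in ldR-H460. TEFM, the transcription elongation factor, had 9.16 CPM in ldR-H460, 12.04 CPM in mdR-H460 and 14.9 CPM in H460. MTERF3 and TFB2M, which act on mitochondrial transcription, fell in ldR-H460 against mdR-H460 alone, with 8.10 CPM in ldR-H460, 13.7 CPM in mdR-H460 and 10.8 CPM in H460 for MTERF3 and 9.82 CPM in ldR-H460, 14.9 CPM in mdR-H460 and 14.1 CPM in H460 for TFB2M. TFAM, which packages and transcribes mitochondrial DNA, had 81.6 CPM in ldR-H460, 89.0 CPM in mdR-H460 and 80.6 CPM in H460, and LRPPRC, which stabilises mitochondrial mRNAs, had 45.3 CPM in ldR-H460, 34.1 CPM in mdR-H460 and 36.0 CPM in H460, and neither passed 1.5-fold.

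Of 7 measured replication and packaging genes, TOP1MT and LONP1 rose in ldR-H460 over H460, with 20.0 CPM in ldR-H460, 13.3 CPM in mdR-H460 and 12.5 CPM in H460 for TOP1MT and 31.7 CPM in ldR-H460, 27.3 CPM in mdR-H460 and 20.1 CPM in H460 for LONP1, and 0 passed 1.5-fold in mdR-H460 over H460. SSBP1, the mitochondrial single-strand binding protein, had 389 CPM in ldR-H460, 640.2 CPM in mdR-H460 and 467 CPM in H460 and fell by 1.65-fold (1.62 to 1.67) in ldR-H460 against mdR-H460, as did ATAD3B. Among 6 measured nuclear regulators, MYC had 90.7 CPM in ldR-H460, 71.0 CPM in mdR-H460 and 53.7 CPM in H460 and rose by 1.69-fold (1.62 to 1.76) in ldR-H460 over H460, and HIF1A fell by 1.91-fold (1.798 to 2.03). PPRC1, a relative of PGC-1, had 15.7 CPM in ldR-H460, 10.4 CPM in mdR-H460 and 11.6 CPM in H460 and rose in ldR-H460 over mdR-H460, and 0 regulators passed 1.5-fold in mdR-H460 over H460. PPARGC1A and NRF1, known activators of mitochondrial genes, stayed under 10 CPM in every culture.

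In the TCA cycle, which feeds NADH and succinate to complexes I and II, 3 of 18 measured genes rose and 2 fell in ldR-H460 over H460, and 0 rose and 2 fell in mdR-H460 over H460. The share that fell, 11.1% in both pairs, was below that of all genes, and 16.7% rose in ldR-H460 over H460, against 8.57% of all genes. Citrate synthase, CS, had 84.6 CPM in ldR-H460, 43.5 CPM in mdR-H460 and 46.6 CPM in H460, the only one of 17 measured in ldR-H460 over mdR-H460 to rise. IDH2 had 42.7 CPM in ldR-H460, 35.02 CPM in mdR-H460 and 24.1 CPM in H460 and SUCLG1 149.9 CPM in ldR-H460, 105 CPM in mdR-H460 and 95.2 CPM in H460. SUCLG2 and OGDH fell in both dR lines against H460, with 9.31 CPM in ldR-H460, 6.42 CPM in mdR-H460 and 15.9 CPM in H460 for SUCLG2 and 10.9 CPM in ldR-H460, 8.89 CPM in mdR-H460 and 17.0 CPM in H460 for OGDH. Of 14 measured carriers, ETFB, SLC25A5 and SLC25A6 rose in ldR-H460 over H460, ETFB alone rose in mdR-H460 over H460, and 0 fell in any pair. The 3 carriers are 21.4% of those measured, and the lists of replication genes and regulators are too short for a share to be read. ETFB, which brings electrons from fatty acid oxidation, had 336 CPM in ldR-H460, 301 CPM in mdR-H460 and 197 CPM in H460. The ADP/ATP carriers had 1624 CPM in ldR-H460, 1377 CPM in mdR-H460 and 1000.4 CPM in H460 for SLC25A5 and 3059 CPM in ldR-H460, 2321 CPM in mdR-H460 and 1886 CPM in H460 for SLC25A6. Cytochrome c, CYCS, had 665 CPM in ldR-H460, 975 CPM in mdR-H460 and 667 CPM in H460, highest in mdR-H460, and CYC1, the cytochrome c1 of complex III, had 432 CPM in ldR-H460, 398 CPM in mdR-H460 and 332 CPM in H460.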

How the data were processed

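Single cells of 3 cultures were profiled with 3′ UMI libraries. Per the submitters' processing notes, which assign no roles, Cell Ranger 3.0.2, Seurat 3.0 and GRCh38 were used. Neither the annotation release nor the strand setting of the counting is given in the sources used here. The authors deposited raw UMI counts per gene symbol and cell, without normalization, for cells they had kept. Counts were summed over the cells of a library and divided by its total (CPM). Symbols missing from a table count as 0, and 3 UMIs (0.0496, 0.0450 and 0.0453 CPM in ldR-H460, mdR-H460 and H460) are the limit a count of 0 allows. With 1 library per culture no test, p-value or standard error was computed. Ratios have exact conditional binomial intervals and shares Clopper-Pearson intervals at 95%, for counting error only. Calls at 1.5-fold were made for genes that reached 10 CPM in at least 1 library of the pair.

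Named are all mitochondrial members, up to 3 nuclear members of each complex with the largest ratio in each pair, isoform pairs, subunit c and complex II genes, assembly factors that match the symbol pattern and up to 4 genes of each context list per pair. Members called, single genes of known role (UQCRB, NDUFS8, TFAM, LRPPRC, PPARGC1A, NRF1, CYCS, CYC1 and the keratins among them) and the promoters shown were added after their values were seen. Not every gene that this rule names is reported here. The members and lists were chosen with earlier results of these data known. All 107 members were placed on GRCh38 through GENCODE release 29 and RefSeq synonyms. Promoters come from RefSeq (GRCh38.p14), 1 start per gene.

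Phases were called on cells thinned to 5000 UMIs with scanpy 1.11.5 and the Seurat 5.3.0 lists, which left out 435, 1271 and 681 shallower cells of ldR-H460, mdR-H460 and H460. No doublet caller was run and all deposited cells were kept. The libraries shared 24 (ldR-H460 and mdR-H460), 36 (ldR-H460 and H460) and 30 (mdR-H460 and H460) cell barcodes. Alternatives used TMM factors (edgeR 4.0.16), DESeq2 1.42.0 size factors, library totals less the mitochondrial and ribosomal protein UMIs, cells given equal weight, and subsets of cells. Scripts were tested on simulated counts (R 4.3.3, Python 3.11.15).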

Additional observations from a re-analysis of the deposited data

How the results depend on the processing

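The order of pairs here is ldR-H460 over H460, mdR-H460 over H460 and ldR-H460 over mdR-H460. The summed mitochondrial log2 ratios of 0.50, 0.12 and 0.38 became 0.62, 0.30 and 0.32 with TMM factors, 0.61, 0.29 and 0.31 with DESeq2 size factors, 0.56, 0.13 and 0.43 with totals that leave out mitochondrial and ribosomal protein UMIs, and 0.54, 0.084 and 0.46 with equal weight per cell. Among cells under 4000 genes they were 0.50, 0.15 and 0.35, among cells called G1 0.55, 0.20 and 0.34, and among cells under a mitochondrial share of 8% 0.42, 0.11 and 0.31. With thinning to 5000 UMIs they were 0.15 for mdR-H460 over H460 and 0.35 for ldR-H460 over mdR-H460. The nuclear sums of 0.12, 0.04 and 0.08 became 0.24, 0.23 and 0.014 (TMM), 0.23, 0.22 and 0.0088 (DESeq2), 0.19, 0.059 and 0.13 (totals without those UMIs), 0.10, 0.030 and 0.073 (equal weight), 0.10, 0.035 and 0.066 (thinned), 0.10, 0.031 and 0.073 (under 4000 genes) and 0.088, 0.030 and 0.058 (G1). With cells under a mitochondrial share of 8% the nuclear sum was 0.13 for ldR-H460 over H460 and 0.090 for ldR-H460 over mdR-H460. Both of these sums kept their sign in each pair. Sums of single complexes did not always: nuclear complex I, which was level in each pair, took either sign, mitochondrial complex I for mdR-H460 over H460 ran from -0.07 to 0.15, nuclear complex V for that pair from -0.03 to 0.19, and nuclear complex II from -0.15 to 0.22 for ldR-H460 over H460, from -0.02 to 0.36 for mdR-H460 over H460 and from -0.14 to 0.0009 for ldR-H460 over mdR-H460.

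Counts of members that rose, 8, 3 and 2, became 19, 8 and 0 with TMM and 15, 7 and 0 with DESeq2 factors, 31, 13 and 19 at the looser of the fold limits tried and 0, 0 and 0 at the stricter limit of 2-fold. Without mitochondrial and ribosomal protein UMIs in the total they were 14 for ldR-H460 over H460 and 4 for ldR-H460 over mdR-H460. For mdR-H460 over H460 the count was 1 with equal weight, with thinning, under 4000 genes and in G1 cells, where 4.68% to 6.28% of all genes rose. For ldR-H460 over mdR-H460 it was 1 under 4000 genes, in G1 cells and under a share of 8%, where 8.56% to 11.5% rose. For ldR-H460 over H460 it was 5 in G1 cells, where 9.84% rose. Counts that fell, 1, 0 and 2, became 8, 8 and 6 at the looser limit. For ldR-H460 over H460 the count was 4 with equal weight and with thinning, 3 in G1 cells, 2 without cells that had HSPA6 UMIs and 0 at a minimum of 30 CPM, which leaves out NDUFA4L2. With equal weight, thinning, G1 cells and cells without HSPA6 UMIs, 19.0% to 26.0% of all genes fell. For mdR-H460 over H460 the count that fell was 1 with thinning and in G1 cells, where 17.5% and 15.8% of all genes fell. For ldR-H460 over mdR-H460 it was 1 at 30 CPM and 1 at 2-fold. Where no construction of the setting shows it, the cause was not tested.

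Single genes and the sums of single complexes or strands moved beyond counting error in 1738 comparisons with an alternative and stayed within it in 1812, and 0 members at 10 CPM or more that were called changed direction. The main results moved more often than other results of the same kind. Their ratios moved in 46 comparisons and stayed in 17. Their counts moved in 34 and stayed in 50, while other counts moved in 39 and stayed in 129. Values at 1 library per culture cannot show whether another culture of the same line would differ as much, and 3′ counts, near-identical copies and shared mRNAs limit what is read from UQCRHL, ATP5EP2, ATP5L2, MT-ATP8 and MT-ND4L. No paired analysis was possible because each culture has 1 library.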
